A study of Homo sapiens with 2 samples.

Results

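The effector genes of the hypoxia-inducible factors were set side by side in slow-cycling and non-slow-cycling cells of the Ewing sarcoma cell line SK-ES-1. The set was defined by gene symbol and holds 10 of the 53737 genes in the deposited tables: VEGFA, ADM, STC2, CA9, CA12, BNIP3, BNIP3L, HILPDA, NDRG1 and ANKRD37. There were 2 libraries, 1 of slow-cycling cells and 1 of the remaining, non-slow-cycling cells, and both are given in the labels as wild-type SK-ES-1 from bone with no treatment named. How the slow-cycling cells were isolated is not given in the sources used here, and neither is the number of cultures behind a library. All 11 markers fixed for Ewing sarcoma cells were present in both libraries, led by the cyclin CCND1 at 1081 and 1066 per-million units and the transcription factor PAX7 at 332 and 307. Of the 11, 6 were higher in slow-cycling cells and 5 lower, and none differed by 1.5-fold. The largest difference by ratio was that of NR0B1, at 95.3 and 118. Here and below the level in slow-cycling cells comes first in each pair.

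Hypoxia-inducible factors (HIF) are transcription factors made of an oxygen-sensitive alpha subunit and the constant partner ARNT. In oxygen, prolyl hydroxylases of the EGLN family mark the alpha subunit for destruction by the VHL ubiquitin ligase. When oxygen is short the alpha subunit accumulates, pairs with ARNT and binds hypoxia response elements, whose core reads ACGTG or GCGTG. The genes it switches on change what a cell does: VEGFA and ADM act on blood vessels, CA9 and CA12 manage acid outside the cell, BNIP3 and BNIP3L mark mitochondria for removal, and HILPDA holds back the breakdown of stored fat. Control of HIF rests largely on the stability of the alpha protein, which RNA levels do not report.

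Promoter sequences are shown for 4 effectors that were higher in slow-cycling cells and carry the HIF core motif close to the start of the gene. STC2 also meets this description, but its sequence is not printed. Each sequence is the 250 bases upstream of the gene's start in RefSeq (GRCh38.p14), printed 5′ to 3′ on the strand of the gene. Capitals mark ACGTG or GCGTG on either strand. A match on the opposite strand reads CACGT or CACGC, and CACGTG is a match on both.
CA9 (chr9:35673678-35673927, plus strand): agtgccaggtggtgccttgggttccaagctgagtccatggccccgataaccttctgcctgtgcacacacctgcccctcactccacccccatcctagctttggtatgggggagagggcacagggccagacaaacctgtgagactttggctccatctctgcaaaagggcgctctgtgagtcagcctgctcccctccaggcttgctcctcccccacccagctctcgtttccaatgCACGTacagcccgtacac
ADM (chr11:10304823-10305072, plus strand): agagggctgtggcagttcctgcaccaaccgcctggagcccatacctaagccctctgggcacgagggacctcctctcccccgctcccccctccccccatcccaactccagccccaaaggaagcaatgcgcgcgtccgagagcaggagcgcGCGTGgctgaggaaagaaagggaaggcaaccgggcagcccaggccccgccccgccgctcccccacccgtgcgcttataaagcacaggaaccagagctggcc
ANKRD37 (chr4:185396591-185396840, plus strand): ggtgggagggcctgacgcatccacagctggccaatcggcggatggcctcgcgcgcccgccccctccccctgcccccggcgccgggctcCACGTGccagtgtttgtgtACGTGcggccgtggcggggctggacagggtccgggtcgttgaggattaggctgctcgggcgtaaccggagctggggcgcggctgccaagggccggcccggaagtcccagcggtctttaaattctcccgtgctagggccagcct
BNIP3 (chr10:131981924-131982173, minus strand): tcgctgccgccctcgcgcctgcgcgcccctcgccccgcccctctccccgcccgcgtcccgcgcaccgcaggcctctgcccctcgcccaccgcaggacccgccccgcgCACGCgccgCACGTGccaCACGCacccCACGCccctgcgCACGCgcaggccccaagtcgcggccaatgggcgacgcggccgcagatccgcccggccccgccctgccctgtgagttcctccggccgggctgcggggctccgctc

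In CA9 the single match begins at position -18, counted from the last base before the start as -1. ADM had 1 match, at -101. ANKRD37 had 2 sites after overlapping matches were joined, a palindrome at -162 and a second site at -143. BNIP3 had 5 sites between -143 and -104, the most of any effector examined. RefSeq promoters were matched for 6 of the 10 genes, the other two being STC2, with 2 sites, and CA12, with 1 at -234. So all 6 held at least 1 site, against 43.1% of the 27305 promoters of the same length in the table and 58.2% of those of genes expressed in these libraries. At least 3 sites were found in 1 of the 6, in 5.61% of all promoters and in 9.33% of those of genes expressed in these libraries. The set was drawn up as HIF targets, so such sites were likely in it beforehand and the shares are no result of these libraries. CA12 is among the 6, although it was listed at 0 in both libraries. The sites are matches of letters in a short window, and whether HIF occupied any of them was not measured.

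Of the 10 effectors, 9 had a higher value in the slow-cycling library and CA12 was listed at 0 in both. As plain ratios of the levels, with nothing added, CA9 was highest at 4.97-fold and the other 8 lay between 1.06-fold for HILPDA and 1.79-fold for NDRG1. Levels are in per-million units, obtained by undoing the log2 of the deposited values, and are taken to be scaled for gene length. A log2 ratio is the log2(level + 1) of the slow-cycling minus that of the non-slow-cycling library, so it understates the difference of weakly expressed genes. A gene was compared when either library had 1 per-million unit or more, which held for 13444 genes and 9 effectors. At least 1.5-fold higher on this scale were CA9, NDRG1 and ADM, 3 of the 9, where 5.38% of all compared genes were. At the looser mark of 25% higher, 6 of the 9 passed, beside 13.5% of compared genes, and at 2-fold only CA9 did, beside 1.9%. No effector was lower, where 56.2% of compared genes had a ratio above 0, 43.8% one below it and 1.41% were at least 1.5-fold lower. The median log2 ratio of the 9 was 0.52, against 0.03 for all compared genes. CA9 passed the filter through the slow-cycling library alone and so had to be higher there. Of the 8 effectors at 1 unit or more in both libraries, 2 passed 1.5-fold upward and the median was 0.46, with 3.09% of such genes as much higher. With 1 library per group these are differences between 2 libraries, with no replicate error and no p-value. In bulk RNA, more cells that express a gene and more RNA per cell cannot be told apart.

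**Figure D1:**
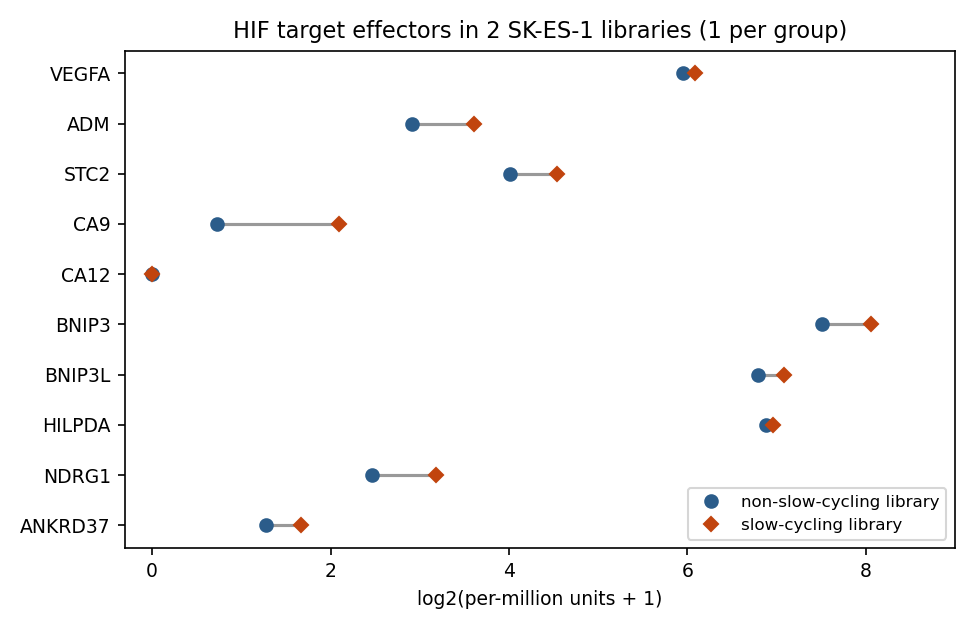
Level of each effector gene, as log2(per-million units + 1) on the horizontal axis, in the non-slow-cycling library (circles) and the slow-cycling library (diamonds), 1 library each, so no error can be drawn. The diamond lies to the right for 9 genes, with the widest gap for CA9, and CA12 sits at 0 in both.

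Among the secreted effectors, the largest ratio was that of ADM and the highest level that of VEGFA. ADM encodes adrenomedullin, a peptide that widens blood vessels, and its gene occupies 10305073 to 10307397 of chromosome 11 (GRCh38). It measured 11.2 per-million units in slow-cycling and 6.54 in non-slow-cycling cells and its log2 ratio was 0.70. STC2, or stanniocalcin 2, a secreted glycoprotein that inhibits the cleavage of IGF-binding proteins, spans 173314723 to 173328414 of chromosome 5. Its level was 22.2 and 15.2, a 1.46-fold difference with a log2 ratio of 0.52. VEGFA, the main growth factor of blood vessels, spans 43770211 to 43786487 of chromosome 6 and measured 67.2 and 60.7. Its log2 ratio of 0.14 was among the smallest of the effectors, at 1.11-fold, although the gene is a textbook HIF target.

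The receptors and relatives of these factors gave few values past 1.5-fold. Of 10 adrenomedullin-related peptides and receptors, 7 were compared. Only CALCB, the calcitonin gene-related peptide 2 gene, was at least 1.5-fold higher, at 14.2 and 7.68 per-million units. That was 1 of 7, beside 5.38% of all compared genes. The receptor partners RAMP1, at 108 and 95.5, and RAMP2, at 21.3 and 21.4, had log2 ratios of 0.17 and 0.00. Of 9 other VEGF ligands and receptors, 5 were listed at 0 in both libraries, among them the principal VEGF receptors FLT1 and KDR. The ligand PGF was at 44.2 and 52.4 and VEGFB at 42.4 and 39.5, and none of the 3 compared differed by 1.5-fold. STC1, the paralogue of STC2 and also a HIF target, was at 32.5 and 22.2, a log2 ratio of 0.53 close to that of STC2. STC1 was singled out after its values were seen.

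The acid-handling pair split. CA9 encodes carbonic anhydrase IX, a membrane enzyme that hydrates carbon dioxide outside the cell and is often used as a marker of hypoxic tumour tissue. The gene spans 35673928 to 35681159 of chromosome 9, and its level was 3.28 per-million units against 0.660 in non-slow-cycling cells. Its log2 ratio of 1.37 ranked 109 of 13444. The level is low, and at such levels the ratio depends on the pseudocount: it was 2.15 with 0.1 added and 0.55 with 5 added. CA12, the other membrane carbonic anhydrase of the set, spans 63321378 to 63381846 of chromosome 15 and was listed at 0 in both libraries. A 0 in these tables can be a failed estimate, since all 13 protein-coding genes of mitochondrial DNA were listed at 0 as well.

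Other genes of acid handling were read beside CA9. Of 13 other carbonic anhydrases, 5 were compared and 7 had a value of 0 in both libraries. Only CA7, at 1.45 and 0.523 per-million units, was at least 1.5-fold higher, and like CA9 it was compared through its slow-cycling level alone. The more abundant CA11, at 38.6 and 31.4, and CA13, at 4.74 and 5.04, had log2 ratios of 0.29 and -0.07. Of 10 compared transporters of acid and bicarbonate, 5 had a ratio above 0 and 5 below, with a median of -0.01. The 1 past 1.5-fold upward was the lactate exporter SLC16A3, itself a HIF target, at 19.9 and 11.0. Its chaperone BSG was at 613 and 687, and the anion exchanger SLC4A2 at 120 and 117. Passing 1.5-fold were thus 1 of 5 and 1 of 10, beside 5.38% of all compared genes.

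BNIP3, the most abundant effector, and its relative BNIP3L encode outer mitochondrial membrane proteins that recruit the autophagy machinery to mitochondria. BNIP3 spans 131967684 to 131981923 of chromosome 10 and measured 266 per-million units against 181 in non-slow-cycling cells, a 1.47-fold difference with a log2 ratio of 0.55. BNIP3L spans 26383054 to 26413127 of chromosome 8 and measured 135 and 110, a log2 ratio of 0.30. Summed over the 10 genes the level was 639 against 497, and BNIP3 alone made up 59.8% of the difference and BNIP3L 17.8%. Neither of the pair reached 1.5-fold. BNIP3 has many processed copies, which can share its reads, and the 40 BNIP3 pseudogenes in the tables were all listed at 0.

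Of 18 other mitophagy receptors and ATG8 proteins, 17 were compared, with a median log2 ratio of 0.12. Of the 17, 14 had a ratio above 0 and 3 below. Only OPTN, the autophagy receptor optineurin, was at least 1.5-fold higher, at 7.27 and 2.21, a log2 ratio of 1.37. That was 1 of 17, beside 5.38% of all compared genes. PHB2, an inner-membrane receptor, was at 517 and 616, and the ATG8 protein GABARAP at 373 and 365. Summed over that list the level was 1852 and 1853, where the lower value of PHB2 in slow-cycling cells offset higher values of other genes.

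The remaining effectors were HILPDA, NDRG1 and ANKRD37. NDRG1, a stress-induced cytoplasmic protein linked to growth arrest and differentiation, spans 133237175 to 133297252 of chromosome 8 and measured 8.10 and 4.51 per-million units, a log2 ratio of 0.72. Its relatives NDRG3, at 41.1 and 42.2, and NDRG2, at 13.2 and 15.4, had ratios of -0.04 and -0.21, and NDRG4 was listed at 0 in both. ANKRD37, a small ankyrin-repeat protein, spans 185396841 to 185400723 of chromosome 4 and measured 2.19 and 1.42, a log2 ratio of 0.40. HILPDA, which inhibits the lipase PNPLA2 on lipid droplets, spans 128455878 to 128458418 of chromosome 7 and measured 124 and 117, the smallest ratio of the 9 at 0.08. Of 13 other lipid droplet proteins, 6 were compared and none differed by 1.5-fold. The droplet coat protein PLIN3 was at 58.5 and 51.7 and PNPLA2 at 50.7 and 44.7.

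Some effectors share their locus with another gene. On the opposite strand, CA9 overlaps ARHGEF39, at 17.8 and 14.1 per-million units, ANKRD37 overlaps UFSP2, at 23.1 and 22.9, and BNIP3L overlaps PNMA2, at 76.6 and 73.6. In GENCODE 29, VEGFA and BNIP3 also overlap non-coding models on the opposite strand, HILPDA overlaps 2 on its own strand, and BNIP3L overlaps 2 on its own strand and 2 pseudogenes on the other. Counting by strand would not separate models on the same strand. The library kit keeps strand, but whether the counting used it is not given in the sources used here. For the low values of CA9 and ANKRD37, the part of reads from the neighbour was not tested.

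How far each ratio stood out depended on how strongly the gene was expressed. Ratios were wide at low levels: 23.1% of genes with a mean under 4 per-million units passed 1.5-fold upward, against 0.774% of those with a mean of 64 or more. Among the genes in the same of 20 level bins, each of 672 or 673 genes, 1.19% had a ratio at least as high as BNIP3 and 1.04% one as high as STC2. The corresponding shares were 1.93% for BNIP3L, 1.93% for CA9, 2.53% for NDRG1 and 2.98% for ADM. For VEGFA and HILPDA they were 15.6% and 15.8%, and for ANKRD37 31.7%. BNIP3 and STC2, which missed 1.5-fold, therefore ranked higher among genes of like level than did the 3 genes that passed it. These shares rank genes within 2 libraries and are not p-values.

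**Figure D2:**
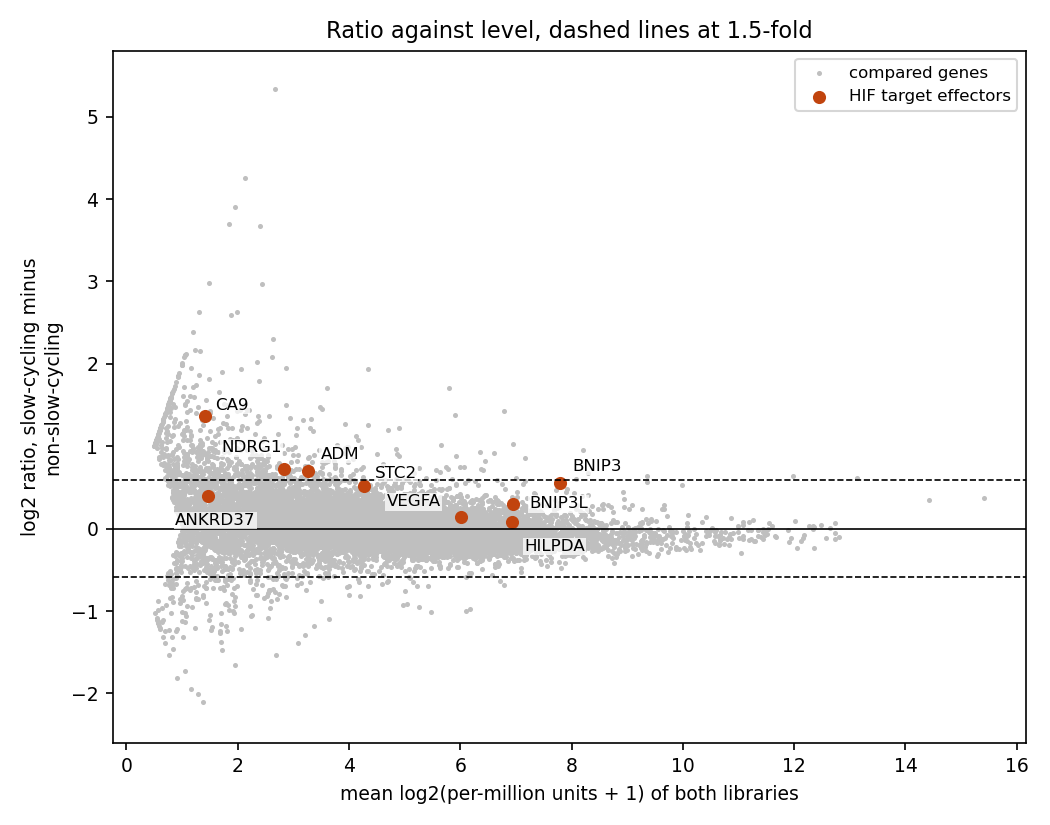
Log2 ratio, slow-cycling minus non-slow-cycling, on the vertical axis against the mean log2(per-million units + 1) of both libraries, for the 13444 compared genes (grey) and the 9 compared effectors (red, named), with dashed lines at 1.5-fold. The grey cloud narrows with level. BNIP3, at a ratio of 0.55, lies near its upper edge, while ANKRD37, at a lower ratio of 0.40 and a lower level, lies inside it.

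Of the HIF subunits and oxygen sensors themselves, 11 were compared, 9 with a ratio above 0 and 2 with a ratio below it. HIF1A was at 91.7 and 87.8 per-million units, a log2 ratio of 0.06, and ARNT at 37.7 and 31.0, a ratio of 0.28. EPAS1, the gene of HIF-2 alpha, and the hydroxylase EGLN3 were listed at 0 in both libraries. VHL was at 46.7 and 46.5 and EGLN2 at 29.5 and 31.7. EGLN1, which HIF also induces, was at 22.7 and 17.4, a ratio of 0.36. Of 11 compared genes of this group only HIF3A, at 7.93 and 4.61, was at least 1.5-fold higher, beside 5.38% of all compared genes. The median of the group was 0.11. How that median compares with the 0.52 of the effectors was not tested.

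Other HIF targets were taken in lists by function. Of 36 compared targets of matrix, stress and signalling roles, 10 were at least 1.5-fold higher and none as much lower. Over all compared genes these shares were 5.38% and 1.41%. The median log2 ratio of the 36 was 0.47. The 4 with the largest ratios were BHLHE40, P4HA2, VLDLR and SLC16A3, at 1.59, 1.22, 1.07 and 0.80. BHLHE40 had a value of 0 in non-slow-cycling cells, so it was compared through its slow-cycling level alone and had to be higher. Of the 35 such targets at 1 unit or more in both libraries, 9 passed 1.5-fold upward, beside 3.09% of such genes. Of 20 glycolytic targets, SLC2A3, ALDOC and PFKFB4 were the 3 past 1.5-fold upward, beside 5.38% of all compared genes. The log2 ratios of these 3 were 0.88, 0.82 and 0.75, and the median of the 20 was 0.16. The glycolytic list summed to 16850 and 17185 per-million units, and the matrix and stress list to 1754 and 1392. Such a sum leans on the most abundant genes, as GAPDH alone was at 6471 and 7088. By gene, 15 of the 20 glycolytic targets had a ratio above 0 and 5 below. In the matrix and stress list, 30 of 36 were above 0 and 6 below. The effectors, with a median of 0.52, lay nearer to the matrix and stress list than to the glycolytic list. Ratios fell with level, and the glycolytic list holds more abundant genes. With the trend with level removed, the medians were 0.47 for the effectors, 0.44 for matrix and stress and 0.22 for glycolysis. The difference between the lists was not tested.

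**Figure D3:**
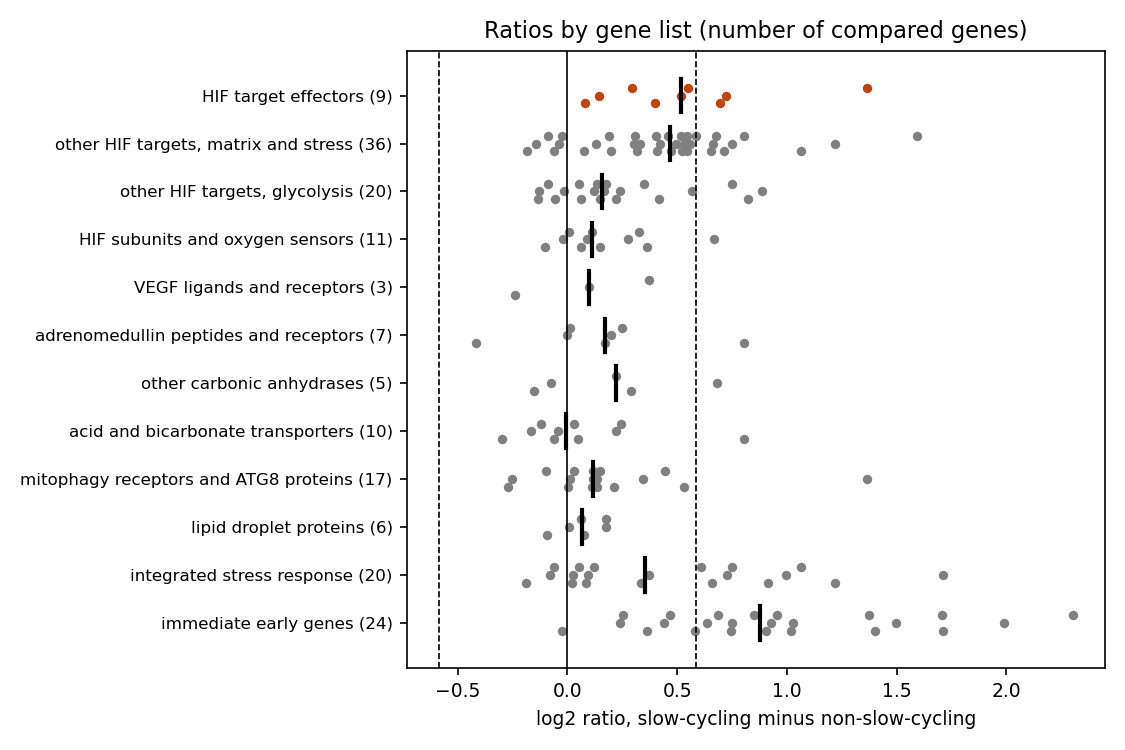
Log2 ratio, slow-cycling minus non-slow-cycling, of each compared gene (points) by gene list, with the number compared in parentheses, the list median (black bar) and dashed lines at 1.5-fold. The effectors, with a median of 0.52, and the matrix and stress targets, at 0.47, lie to the right of the glycolytic targets, at 0.16, and the immediate early genes lie farthest right, at 0.88.

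Genes listed for other programmes were higher in the same library, though the lists share genes. VLDLR and DDIT4 were counted among the matrix and stress targets of HIF as well as in the integrated stress response. ATF3 was counted both in the integrated stress response and among the immediate early genes. Of 20 genes of the integrated stress response, whose factor ATF4 also induces VEGFA and STC2, 9 were at least 1.5-fold higher. The share of all compared genes was 5.38%, and the median log2 ratio of the 20 was 0.35. The 4 with the largest ratios were ATF3, DDIT3 and VLDLR, at 1.71, 1.22 and 1.07, and TRIB3, whose level was 10.5 and 4.79, while ATF4 itself was at 522 and 514 per-million units. Immediate early genes respond quickly to growth factors and to handling of cells. Of 24 compared, 17 passed 1.5-fold upward, beside 5.38% of all compared genes. The median ratio was 0.88, EGR3, EGR4, ATF3 and FOSB had the largest, at 2.30, 1.99, 1.71 and 1.71, and the list summed to 3654 against 2370. EGR4, at 2.97 and listed at 0, and FOSL1, at 2.86 and 0.461, were compared through their slow-cycling level alone. Both are among the 17 and had to be higher there. The part of either programme in the effector difference was not tested.

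Markers of other cell types were summed by list. Of 8 endothelial markers, 6 were listed at 0 in both libraries, PECAM1, CDH5 and VWF among them, and the list summed to 14.9 and 12.3 per-million units, most of it EMCN at 11.2 and 8.62. Of 8 immune markers, 3 were listed at 0 in both, the pan-leukocyte gene PTPRC among them. Of the 3 compared, 2 were at least 1.5-fold higher, among them the macrophage marker CD68 at 4.36 and 2.28, with list sums of 15.9 and 10.4. Of 8 compared fibroblast and pericyte markers, 2 were at least 1.5-fold higher, COL1A1 at 3.19 and 1.15 and FAP at 3.67 and 1.74, with sums of 278 and 249. Most of that sum was COL1A2, at 144 and 139, THY1, at 52.5 and 41.2, and COL3A1, at 49.9 and 47.4, and COL1A2 was above BNIP3L in both libraries. The 6 epithelial markers summed to 20.2 and 21.2. Passing 1.5-fold were thus 2 of 3 immune and 2 of 8 fibroblast and pericyte markers, beside 5.38% of all compared genes. The part of the markers of other cell types in the effector difference was not tested.

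Changes of scaling moved the effector ratios little, and the pseudocount moved those of the weakly expressed genes. With 5 added in place of 1, CA9, NDRG1 and ADM fell under 1.5-fold, at log2 ratios of 0.55, 0.46 and 0.49. ANKRD37, at 0.40, became 0.59 with 0.1 added, which is past 1.5-fold, and 0.16 with 5 added. After the trend with level was taken out, BNIP3 rose past 1.5-fold, at 0.64, and ANKRD37 was at 0.21. The median of the 9 stayed between 0.43 and 0.55 over these settings.

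**Figure D4:**
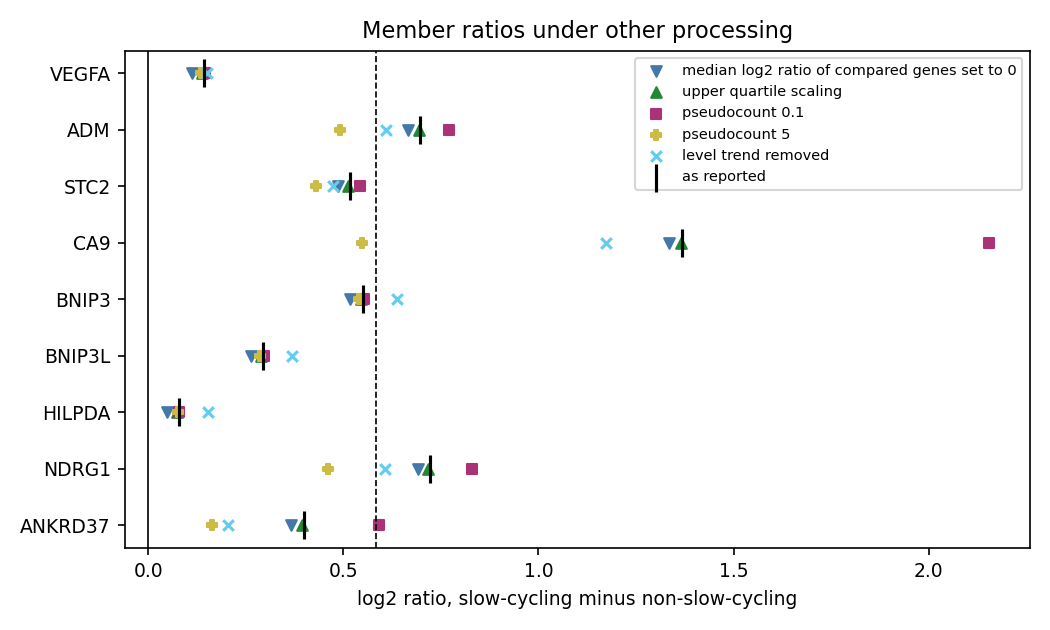
Log2 ratio of each compared effector, slow-cycling minus non-slow-cycling, as reported (black bar) and under 5 other ways of processing (coloured symbols), with a dashed line at 1.5-fold. Every symbol lies to the right of 0, and the symbols spread most for CA9, from 0.55 to 2.15.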

How the data were processed

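RNA was measured by poly(A)-selected, stranded RNA sequencing in 1 library of slow-cycling and 1 of non-slow-cycling SK-ES-1 cells, per the labels' protocols. The authors deposited 1 column of values per library, called normalized per the file headers, on genome build hg38 per the submitters' processing notes. The deposited values were taken as log2 of a per-million, length-scaled value plus 1, from the numbers alone: none was negative, and the back-transformed values summed to 983638 and 984120. Which aligner, counter and annotation were used is not given in the sources used here. The headers abbreviate the groups as LRC and non-LRC without a legend, so each table was assigned through the sample it was deposited for.

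Lines of 1 gene ID with locus suffixes were summed, from 53826 lines to 53737 genes. Read depth is unknown, so no counting interval was computed. Ratios used a pseudocount of 1 and a filter of 1 per-million unit in either library, and were computed with Python 3.11.15, numpy 2.4.6 and pandas 2.3.3. The ratio calculation was tested on simulated data.

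The effectors and lists were chosen with earlier results of these data known. All 10 effectors are named, and of each other list up to 4 genes past 1.5-fold by size of ratio, or the 2 most abundant where fewer than 2 passed, with the HIF subunits and sensors. Genes named beyond that rule, such as STC1, FLT1, KDR, NDRG4, GAPDH, ATF4, DDIT4, FOSL1, NR0B1, COL1A2, THY1, COL3A1 and the marker genes at 0, were chosen after their values were seen. An item that the rule names is not reported here. The alternatives were other scalings, pseudocounts, filters and fold thresholds, removal of the trend of the ratio with level, and, added after seeing the data, a minimum in both libraries.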

Additional observations from a re-analysis of the deposited data

How the results depend on the processing

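Of 69 effector ratios recomputed under the alternatives, none changed sign, 59 moved by less than 0.1 on the log2 scale and 10 moved by more, all of them ratios of CA9, NDRG1, ADM or ANKRD37. Part of this was fixed in advance. A change of filter leaves the ratio of a gene as it is, and a change of pseudocount cannot reverse its sign. Only the scalings and the removal of the level trend could have changed a sign. The count of effectors at least 1.5-fold higher, 3 as reported, was 0 with a pseudocount of 5, 6 at a threshold of 25% higher and 1 at 2-fold. The count of matrix and stress targets, 10 as reported, was 4 with a pseudocount of 5, 23 at 25% higher and 3 at 2-fold. The count of glycolytic targets, 3 as reported, was 6 at 25% higher and 0 at 2-fold. A larger pseudocount shrinks ratios of low genes by construction. At a minimum of 5 per-million units CA9 and ANKRD37 were not compared, and 2 of 7 effectors were at least 1.5-fold higher. Of all compared genes, 13.5% were at least 25% higher and 1.9% at least 2-fold higher. The share of all genes passing with a pseudocount of 5 or a minimum of 5 was not computed. The counts under those settings therefore cannot be set against genes in general. No paired analysis was possible because each group had 1 library. No library could be left out for the same reason, and the depth behind the values is unknown.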

Other observations

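Across the compared genes with a RefSeq promoter, a core motif of the hypoxia response element upstream did not go with a higher ratio. Of 4356 compared genes with a RefSeq promoter and no ACGTG or GCGTG in the 250 bases upstream, 5.33% passed 1.5-fold upward in slow-cycling cells. Their median ratio was 0.04 on the log2 scale. Of 3399 genes with 1 site the share was 3.88%, of 1705 with 2 sites 3.11% and of 973 with 3 or more sites 3.60%, with medians of 0.02, 0.02 and 0.01. BNIP3, with 5 sites and a ratio of 0.55, belongs to the last class. Genes share base composition and level with their neighbours in such classes, and the classes were not matched for level. A match this short stood in 58.2% of these promoters, and HIF binding was not measured. The shares are therefore only a description of these libraries.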
